A study of Mus musculus with 64 samples.

Results

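The Wnt ligands, their receptors, their secreted inhibitors and 3 transcription readouts of the pathway were followed in 4 cell populations of the mouse heart, 3 days after sham surgery or myocardial infarction (MI). Members were the protein-coding genes whose symbol begins with Wnt, Fzd, Sfrp or Dkk followed by a digit, together with Wif1, Frzb, Lrp5, Lrp6, Axin2, Lef1 and Tcf7. The table of 20637 genes, 15632 of them protein-coding, held 35 such members: 12 Wnt ligands, 10 Frizzled receptors, the co-receptors Lrp5 and Lrp6, 8 secreted inhibitors and 3 readouts (Axin2, Lef1 and Tcf7). Of the 44 genes in GENCODE M21 that meet the same rule, 9 (Dkk1, Dkk4, Wnt1, Wnt10a, Wnt3, Wnt3a, Wnt7a, Wnt7b and Wnt8a) were not analysed here. A mean of 5 CPM (counts scaled to a common library size) or more was reached in some group by 26 members and 1 CPM or more by 33, while Wnt8b and Wnt16 stayed below 1 CPM in the mean of every group.

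All animals were CD1 mice, an outbred strain, with no engineered allele. Surgery was done on postnatal day 1 (P1) or at 8 weeks (P56), which gave 4 conditions (P1 sham, P1 MI, P56 sham and P56 MI) in each of 4 populations, 16 groups of 4 libraries. Adult infarcts were made in males by permanent ligation of the left descending coronary artery. Neonatal infarcts followed a published surgical protocol, the sex of the pups was not given, and the ventricles of 6 pups were pooled for each digestion. Neonatal ventricles were minced and stirred in enzyme, whereas adult hearts were perfused with it, so that age cannot be told apart from sex, pooling or the way the cells were released. Cardiomyocytes were the dense fraction of a Percoll gradient and were not sorted. From the lighter fraction, fibroblasts were sorted as CD90+/CD45-/CD31-, leukocytes as CD45+ and endothelial cells as CD31+/CD45-. The labels number the 4 libraries of a group without saying that they came from separate animals or pools, so the p-values reflect only how much these libraries differ among themselves, which could be technical.

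Library depth was 9587688 to 27542141 reads, and 3 reads corresponded to 0.102 to 0.409 CPM. Each population held its own markers at high levels, but none was free of the others. The 12 cardiomyocyte markers (sarcomere genes and the like) summed to 74717 to 205385 CPM in the P56 sham leukocyte libraries against 5151 to 18824 CPM after infarction, and to 9104 to 20780.4 CPM in the P56 sham endothelial libraries. Markers of other cells are therefore given beside the results they move with. In 7 libraries more than 5% of reads came from 18S ribosomal RNA, with the highest share, 26.1%, in P1 sham fibroblast replicate 4.

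Wnt proteins are secreted lipid-modified signals that bind Frizzled receptors, and in the β-catenin branch also the co-receptors Lrp5 and Lrp6, after which β-catenin accumulates and acts with the factors encoded by Lef1 and Tcf7. Other ligands, Wnt5a and Wnt11 among them, are best known for β-catenin-independent signals. The secreted Frizzled-related proteins (the Sfrp genes and Frzb) and Wif1 bind Wnt proteins outside the cell, whereas Dkk2 binds Lrp5 and Lrp6, and Axin2 is a feedback inhibitor widely used as a readout of β-catenin activity. In the heart the pathway is known from the formation of the organ and its valves and from scar formation after injury.

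Promoters are shown here for 4 members whose level in fibroblasts differed after adult infarction: 3 that fell (Wnt11, Fzd7 and Wnt5b) and Dkk2, which had the largest rise. RefSeq start sites (GRCm38.p6) were matched by symbol for 25 of the 35 members, with 32 windows of 300 bases, 250 before and 50 after each start. Short words bound by TCF/LEF factors were searched on both strands. They were CTTTGAA, together with the form CTTTGAT, and likewise the form CTTTGTA, together with the form CTTTGTT. Each member found held a single word. At least 1 word was present in 4 of the 25 members (16%: Fzd7, Lef1, Wnt11 and Wnt5b) and in 18.9% of the 27025 genes with such a window. Of the 6 members that fell in fibroblasts after adult infarction all had a window and 3 held a word, whereas none of 6 windowed members among the 10 that rose held one. Among the 13 not called, 7 had a window and 0 held a word. For Wnt11 and Wnt5b the word lies in 1 window, and further windows of both genes hold none. The 3 that fell and held a word are those printed below. These counts are small, were set side by side after the calls were known and carry no test. The 250 bases upstream of the start are printed 5′ to 3′ on the gene's own strand, with the word in capitals and the rest in lower case: Wnt11 (chr7:98834862-98835111, plus strand) holds ATCAAAG 51 bases before its start, Fzd7 (chr1:59481897-59482146, plus strand) holds AACAAAG 130 bases before it, Wnt5b (chr6:119449387-119449636, minus strand, 1 of its 3 windows) holds CTTTGAT 71 bases before it, and Dkk2 (chr3:132085042-132085291, plus strand) holds none of the 4 words.
Wnt11: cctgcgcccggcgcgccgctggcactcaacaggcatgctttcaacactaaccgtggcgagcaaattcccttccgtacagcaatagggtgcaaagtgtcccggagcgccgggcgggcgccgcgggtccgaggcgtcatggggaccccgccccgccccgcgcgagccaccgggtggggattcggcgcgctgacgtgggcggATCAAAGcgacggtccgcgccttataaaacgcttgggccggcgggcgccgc
Fzd7: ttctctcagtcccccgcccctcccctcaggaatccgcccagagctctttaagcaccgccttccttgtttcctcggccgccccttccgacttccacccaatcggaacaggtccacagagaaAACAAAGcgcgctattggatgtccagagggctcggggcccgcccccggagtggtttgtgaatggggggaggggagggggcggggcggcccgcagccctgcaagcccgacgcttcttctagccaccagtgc
Wnt5b: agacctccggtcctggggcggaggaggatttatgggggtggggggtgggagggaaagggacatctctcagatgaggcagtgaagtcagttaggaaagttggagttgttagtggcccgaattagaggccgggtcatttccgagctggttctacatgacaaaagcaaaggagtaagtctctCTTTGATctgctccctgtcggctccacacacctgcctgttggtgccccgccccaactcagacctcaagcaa
Dkk2: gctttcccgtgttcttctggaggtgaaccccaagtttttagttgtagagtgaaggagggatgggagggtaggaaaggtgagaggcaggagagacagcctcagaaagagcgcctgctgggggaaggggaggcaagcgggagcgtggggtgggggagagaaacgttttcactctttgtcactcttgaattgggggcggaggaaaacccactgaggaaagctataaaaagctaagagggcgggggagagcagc
The windows of the members had a median GC content of 66.5% and a median of 23.5 CpG sites, against 52.7% and 7 over all 32851 windows.

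Populations were first compared in the sham libraries, 8 per population. A member was counted as highest in a population when its log2(CPM + 0.5) was at least 1 above each of the other populations with an adjusted p under 0.05 (limma with Benjamini-Hochberg adjustment over all genes). Differences below are from the next-highest population, as the mean of both ages, with the largest of the 3 adjusted p. Fibroblasts led, with 11 members, among them 5 of the 8 secreted inhibitors. Genes with at least 1 CPM in 4 libraries were tested, and Sfrp4 and Wnt10b reached that within a population in fibroblasts alone. Their place among the 11 was thus largely set by the filter, and their p-values add no support to it. By the same rule 7.07% of the 17618 genes tested were highest in fibroblasts. Endothelial cells had 3 members (5.01% of all genes), cardiomyocytes 1 (11.7% of all genes) and leukocytes 1 (5.54% of all genes). In these bulk libraries, fewer cells of a type and less RNA per cell cannot be told apart. The plot of group means shows all 35 members.

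**Figure D1:**
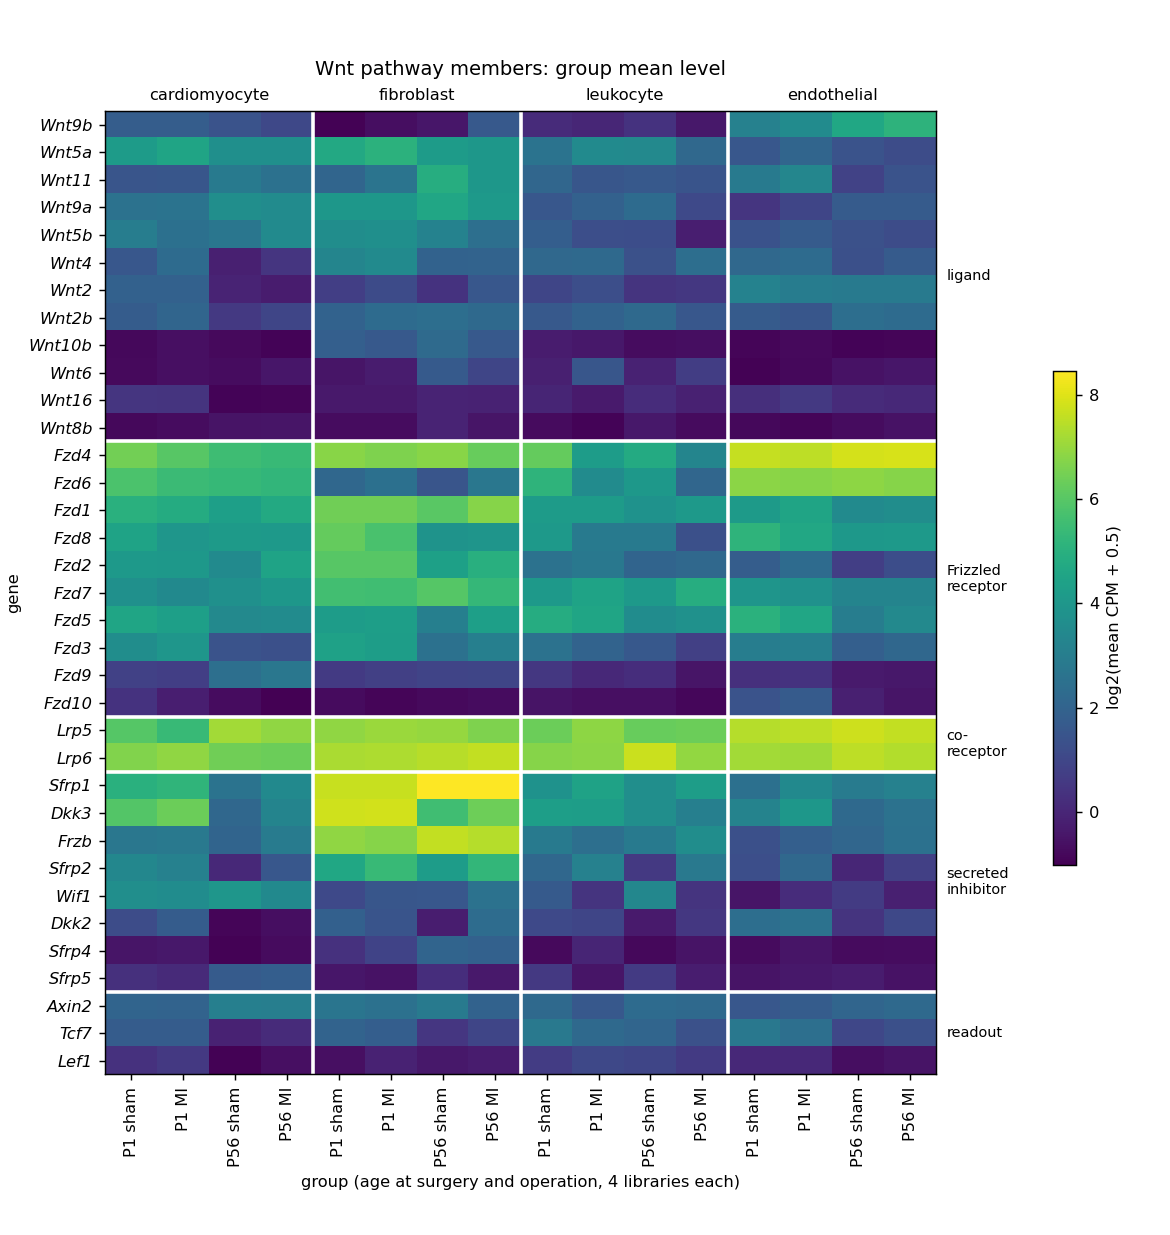
Mean CPM of all 35 members (rows, ordered by role and level) in the 16 groups (columns, each the mean of 4 libraries), coloured by log2(mean CPM + 0.5). The inhibitors Sfrp1, Frzb, Dkk3 and Sfrp2 are brightest in the fibroblast columns, Fzd6, Wnt9b and Wnt2 in the endothelial columns, and the co-receptors Lrp5 and Lrp6 are bright in all 16.

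Sfrp1 and Frzb are 2 of the inhibitors highest in fibroblasts. The 4 P1 sham fibroblast libraries held Sfrp1 at 216, 210.3, 199 and 178 CPM and the 4 P56 sham libraries at 228, 433, 424 and 323 CPM (log2 4.29 ± 0.24 (SE) above the cardiomyocyte fraction, adjusted p = 1.08e-16). The level of Frzb, which encodes the related protein sFRP3, was 119.6, 134, 124 and 99.6 CPM in P1 sham and 161, 213, 209.7 and 185 CPM in P56 sham fibroblasts (log2 4.45 ± 0.23 (SE) above the leukocytes, adjusted p = 3.03e-17). For both genes the fibroblast libraries lay far above every other sham library, whose means did not exceed 31.6 CPM for Sfrp1 and 6.88 CPM for Frzb.

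Dkk3, a divergent Dickkopf gene, stood at 241, 241, 208 and 192 CPM in P1 sham and 44.1, 51.5, 53.5 and 38.3 CPM in P56 sham fibroblasts (log2 2.66 ± 0.17 (SE) above the cardiomyocyte fraction, adjusted p = 2.33e-15). Sfrp2 was at 28.5, 21.1, 26.7 and 21.1 CPM and 17.6, 16.6, 22.0 and 17.4 CPM in the same 2 groups (log2 2.81 ± 0.23 (SE) above the cardiomyocyte fraction, adjusted p = 1.00e-12). The rarer Sfrp4 was also highest in fibroblasts, at 2.13 to 5.14 CPM in P56 sham (log2 1.87 ± 0.12 (SE) above the endothelial cells, adjusted p = 5.78e-15). Per kilobase of the deposited gene length, so that genes can be set beside each other, the P56 sham fibroblast levels were 80.5 ± 22.1 CPM per kb for Sfrp1, 61.0 ± 7.67 for Frzb, 14.0 ± 2.08 for Dkk3 and 9.19 ± 1.23 for Sfrp2 (SD, n = 4). In P1 sham they were 65.6 ± 7.19 CPM per kb for Dkk3, 46.0 ± 3.81 for Sfrp1, 37.9 ± 4.64 for Frzb and 12.2 ± 1.90 for Sfrp2. Dkk3 was thus above Sfrp1 and Frzb in the neonatal sham libraries and below both in the adult ones.

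Of the receptors, Fzd1, Fzd2 and Fzd7 were highest in fibroblasts. Fzd1 was at 86.9, 82.8, 93.0 and 75.3 CPM in P1 sham and 69.7, 76.5, 63.4 and 54.5 CPM in P56 sham fibroblasts (log2 1.57 ± 0.11 (SE) above the cardiomyocyte fraction, adjusted p = 2.09e-14). The Fzd2 values were 67.2, 63.2, 65.8 and 56.7 CPM and 20.4, 19.6, 20.7 and 20.9 CPM (log2 1.39 ± 0.14 (SE) above the cardiomyocyte fraction, adjusted p = 2.14e-10). Those of Fzd7 were 52.0, 52.8, 48.8 and 40.5 CPM and 49.4, 74.1, 68.8 and 55.4 CPM (log2 1.68 ± 0.12 (SE) above the leukocytes, adjusted p = 2.81e-14). All 3 receptors were also read in the other populations, with group means above 1 CPM throughout.

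The fibroblast ligands were Wnt11, Wnt9a and the rare Wnt10b. Wnt11 was at 2.79, 3.87, 4.46 and 3.68 CPM in P1 sham and 25.1, 23.7, 38.6 and 30.2 CPM in P56 sham fibroblasts (log2 1.32 ± 0.15 (SE) above the cardiomyocyte fraction, adjusted p = 2.32e-09), and in the neonatal hearts the endothelial mean, 7.03 CPM, was above the fibroblast mean, 3.70 CPM. The fibroblast mean was the highest of the 4 populations in the adult sham libraries only. Wnt9a stood at 14.9, 15.6, 14.1 and 17.3 and 21.1, 25.1, 27.1 and 20.6 CPM (log2 1.20 ± 0.15 (SE) above the cardiomyocyte fraction, adjusted p = 1.21e-08). Wnt10b was at 3.04 to 5.58 CPM in P56 sham fibroblasts and was at or under 3 reads in most other libraries (log2 2.54 ± 0.12 (SE) above the leukocytes, adjusted p = 4.72e-18). When the 32 MI libraries were used in place of the sham libraries, Fzd7, Wnt9a and Wnt11 no longer met the rule for fibroblasts.

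Endothelial cells were marked by 2 ligands and 1 receptor. Wnt9b, a ligand known from kidney and valve development, was at 7.66, 8.87, 9.14 and 8.16 CPM in P1 sham and 26.6, 24.6, 24.5 and 22.5 CPM in P56 sham endothelial libraries (log2 2.35 ± 0.17 (SE) above the cardiomyocyte fraction, adjusted p = 7.15e-14). The values of Wnt2 were 7.10, 9.37, 10.2 and 7.90 CPM and 7.88, 7.08, 6.14 and 6.28 CPM (log2 2.12 ± 0.14 (SE) above the cardiomyocyte fraction, adjusted p = 1.39e-14). Fzd6, a receptor known for planar cell polarity, was at 117, 109, 120.4 and 102 CPM and 104, 119.8, 123 and 119 CPM (log2 1.29 ± 0.13 (SE) above the cardiomyocyte fraction, adjusted p = 1.39e-10). For all 3 genes every sham endothelial library was above every sham library of the other populations. Fzd4, the receptor for norrin in vessels, had its highest means in endothelial cells too (195 ± 11.9 CPM in P1 sham and 229 ± 21.8 CPM in P56 sham, SD, n = 4) but was less than 1 log2 unit above the fibroblasts and did not meet the rule.

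Wif1, encoding Wnt inhibitory factor 1, was the one member highest in the cardiomyocyte fraction, at 11.5, 14.1, 12.4 and 10.8 CPM in P1 sham and 18.2, 5.76, 13.6 and 22.4 CPM in P56 sham (log2 1.29 ± 0.26 (SE) above the leukocytes, adjusted p = 5.59e-05). The P56 sham leukocyte libraries, which also held the most cardiomyocyte marker RNA among the sorted cells, carried 15.9, 4.56, 6.29 and 12.8 CPM of Wif1. Lef1 was highest in leukocytes by a narrow margin and at a low level, 0.586 to 2.12 CPM in P1 sham and 0.819 to 1.95 CPM in P56 sham (log2 1.05 ± 0.17 (SE) above the endothelial cells, adjusted p = 2.83e-06). That call was lost without P1 sham endothelial replicate 1, P1 sham leukocyte replicate 3, or P56 sham leukocyte replicate 1 or 3, as its difference then fell below 1. The co-receptors were read in every group: group means ran from 41.1 to 211 CPM for Lrp5 and from 81.3 to 209 CPM for Lrp6.

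Within each population, limma was fitted to the 16 libraries of its 4 conditions on log2(CPM + 0.5), over genes with at least 1 CPM in 4 libraries. A low member that reached 1 CPM only in some groups passed through those groups. The direction of its change was then largely set by the filter, and its p-value adds no support. Changes are on that scale, so those of low genes are understated, and a call means an adjusted p under 0.05 over all genes of the fit. Statements on whether libraries of compared groups overlapped describe the values of the named genes only. The share of all genes without overlap was not counted, so a lack of overlap does not set these members apart. In fibroblasts 29 of the 35 members passed the filter. Limma called 21 for age and 16 for adult infarction, against 67% and 50% of all genes. It called 13 for the contrast between ages and none for neonatal infarction, against 31.7% and 2.37% of all genes. The plot of 8 members by library shows the main patterns.

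**Figure D2:**
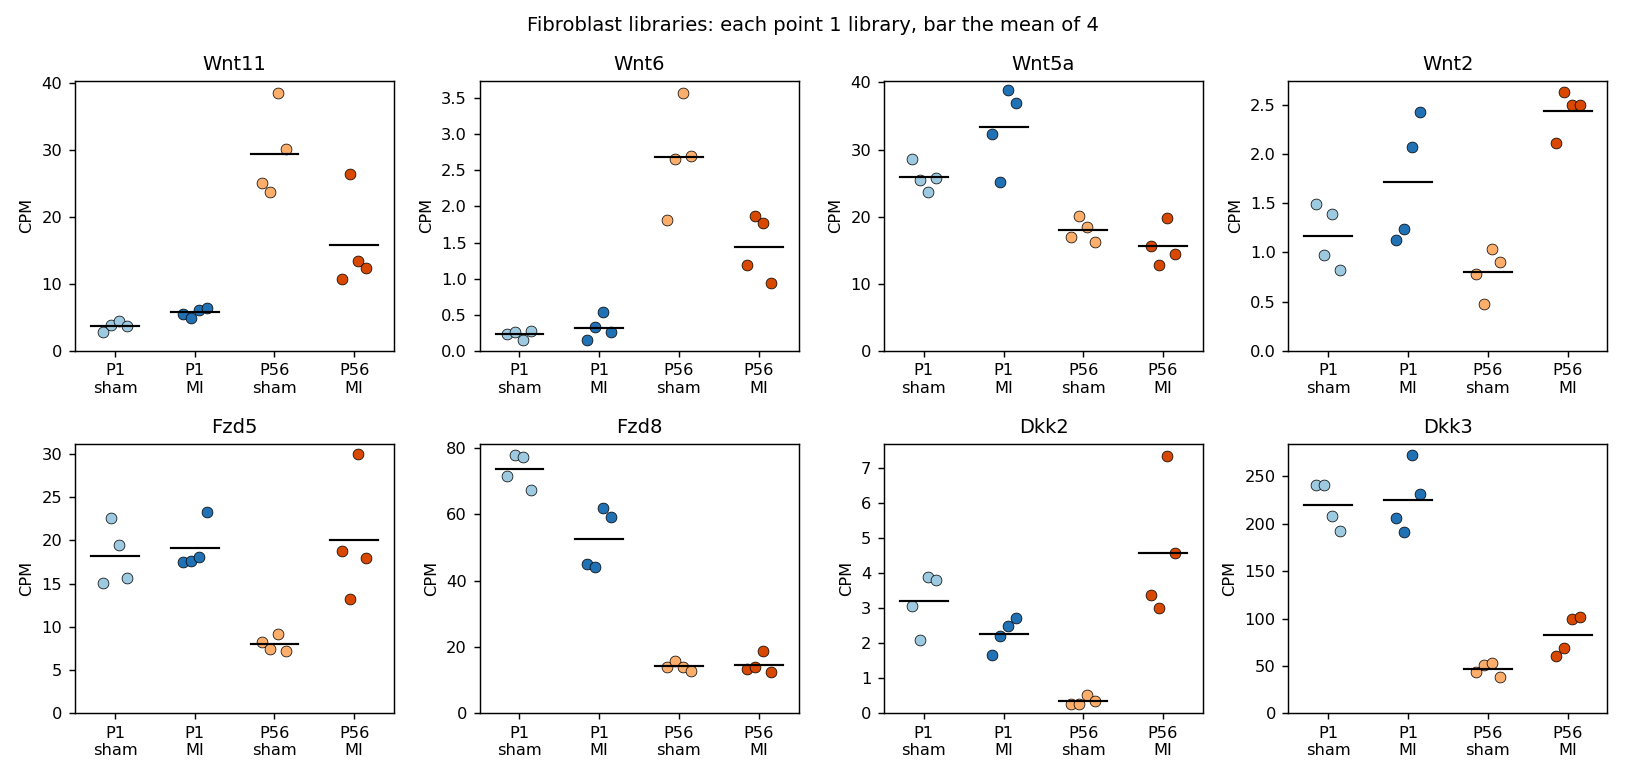
CPM in each fibroblast library (points) with the mean of 4 (bars) for Wnt11, Wnt6, Wnt5a, Wnt2, Fzd5, Fzd8, Dkk2 and Dkk3, in P1 sham, P1 MI, P56 sham and P56 MI. Wnt11 and Wnt6 are higher at P56 and lower after adult infarction, whereas Dkk2, Dkk3 and Fzd5 are lower at P56 sham and higher after adult infarction.

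Between P1 sham and P56 sham fibroblasts, 9 members were higher in the adult and 12 lower, 21 of 29 in all, against 67% of all genes (34.8% higher and 32.2% lower). The median log2 change was -0.01 for the members that passed the filter and 0.03 for all 15729 genes tested. Most receptors were lower in the adult (6 of 9 Frizzled genes, 1 higher), while ligands went both ways (4 higher and 3 lower of 9), as did inhibitors (3 higher and 2 lower of 7).

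Wnt11 had the largest rise: the P1 and P56 values given above did not overlap (log2 change 2.82 ± 0.22 (SE), adjusted p = 1.42e-08). Wnt6 was also higher, from 0.143 to 0.272 CPM in P1 sham to 1.81 to 3.57 CPM in P56 sham (log2 change 2.11 ± 0.20 (SE), adjusted p = 1.29e-07). With P1 means of 0.227 CPM in sham and 0.321 CPM in MI, Wnt6 passed the filter mainly through its P56 libraries. Its rise was thus largely set by the filter. Among inhibitors Sfrp4 (log2 change 1.66 ± 0.23 (SE), adjusted p = 8.69e-06), Sfrp1 (log2 change 0.77 ± 0.17 (SE), adjusted p = 9.66e-04) and Frzb (log2 change 0.68 ± 0.14 (SE), adjusted p = 3.35e-04) were higher in the adult. Wnt4, a ligand needed for kidney tubule formation, went the other way, from 9.31, 10.8, 10.8 and 7.08 CPM to 2.91, 5.13, 2.65 and 3.04 CPM (log2 change -1.37 ± 0.24 (SE), adjusted p = 1.04e-04).

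Among the receptors Fzd8 had the largest fall, from 71.7, 78.0, 77.2 and 67.4 CPM in P1 sham to 14.0, 15.8, 14.1 and 12.9 CPM in P56 sham (log2 change -2.34 ± 0.13 (SE), adjusted p = 3.17e-10). Fzd3 fell from 23.5, 20.7, 20.1 and 19.2 CPM to 6.72, 4.35, 5.06 and 5.05 CPM (log2 change -1.90 ± 0.15 (SE), adjusted p = 1.12e-08). Fzd5 fell from 15.1, 22.6, 19.4 and 15.7 CPM to 8.27, 7.48, 9.21 and 7.15 CPM (log2 change -1.12 ± 0.19 (SE), adjusted p = 7.42e-05). In none of these did a P1 library overlap with a P56 library, and the same held for Fzd2 (log2 change -1.61 ± 0.18 (SE), adjusted p = 6.27e-07), whose values stand above. Dkk3 was lower in the adult (log2 change -2.23 ± 0.16 (SE), adjusted p = 6.01e-09), and so was Dkk2, which was at 3.06, 2.10, 3.89 and 3.81 CPM in P1 sham and 0.258, 0.261, 0.518 and 0.343 CPM in P56 sham (log2 change -2.12 ± 0.23 (SE), adjusted p = 6.33e-07). Tcf7 fell from 2.79, 4.13, 4.49 and 2.86 CPM to 0.646, 1.04, 1.21 and 0.685 CPM (log2 change -1.54 ± 0.19 (SE), adjusted p = 1.71e-06).

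The smaller changes included Fzd7 and Lrp6, both higher in the adult (0.34 and 0.18), whose adjusted p reached 0.163 and 0.215 with single libraries left out, and Fzd1, Wnt5b and Wnt2b, which also lost their calls in some such fits. For Lrp6 these libraries were P1 sham replicates 2, 3 and 4 or P56 sham replicates 2, 3 and 4. For Fzd7 they were P1 sham replicates 1, 3 and 4, P56 sham replicates 2 and 3, P1 MI replicates 1 and 4 or P56 MI replicates 1, 3 and 4. Markers of other cells differed with age too: cardiomyocyte markers summed to 278 to 502 CPM in P1 sham and 2809 to 5941 CPM in P56 sham fibroblasts, and endothelial markers to 317 to 375 and 464 to 669 CPM, none of them at 0. Epicardial and mesothelial markers summed to 140.2 to 177 and 41.1 to 62.6 CPM (7 of 7 lower) and Schwann cell markers to 3.82 to 5.04 and 21.7 to 57.3 CPM (4 of 5 higher). Their part in the age differences was not tested.

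After neonatal infarction no member was called in fibroblasts by limma, against 2.37% of all genes (1.99% higher and 0.375% lower). At an unadjusted p under 0.05 there were 5 members (Fzd8, Wnt5a, Sfrp2, Wnt11 and Sfrp4). The shares of all genes at that unadjusted level, or called by edgeR or DESeq2, are not given here, so such counts do not set the members apart. On recovered reads edgeR and DESeq2 each called 1, Fzd8, which was at 71.7, 78.0, 77.2 and 67.4 CPM in P1 sham and 45.1, 44.0, 61.9 and 59.2 CPM in P1 MI (limma log2 change -0.50 ± 0.13 (SE), adjusted p = 0.0601). Its sham and infarct libraries did not overlap. Without P1 MI replicate 3, P56 MI replicate 1 or P56 MI replicate 3, limma called 1 member. The Wnt5a values were 28.7, 25.5, 23.7 and 25.7 CPM in P1 sham and 32.3, 25.2, 38.9 and 37.0 CPM in P1 MI (log2 change 0.34 ± 0.14 (SE), adjusted p = 0.251). Median log2 changes were 0.06 for the members that passed the filter and 0.01 for all 15729 genes tested.

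After adult infarction 16 of the 29 members were called, 10 higher and 6 lower, against 50% of all genes (24.8% higher and 25.2% lower). Receptors mostly rose (5 Frizzled genes higher and 2 lower of 9), all called inhibitors rose (3 of 7), and called ligands mostly fell (4 lower and 1 higher of 9). Neither co-receptor was called, and of the 2 readouts that passed the filter Tcf7 was higher. As a whole, log2 changes had a median of 0.02 for the members that passed the filter and -0.03 for all 15729 genes tested.

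Dkk2, the inhibitor of Lrp5 and Lrp6, had the largest rise. It was at 0.258, 0.261, 0.518 and 0.343 CPM in P56 sham and 3.38, 3.02, 7.34 and 4.58 CPM in P56 MI (log2 change 2.53 ± 0.23 (SE), adjusted p = 3.64e-07), with no overlap. The sham values rested on 4 to 9 reads a library. Dkk3 rose from 44.1, 51.5, 53.5 and 38.3 CPM to 60.3, 68.8, 99.4 and 102 CPM (log2 change 0.79 ± 0.16 (SE), adjusted p = 9.20e-04), also without overlap. Sfrp2 was at 17.4, 50.7, 35.0 and 48.3 CPM after infarction (log2 change 0.92 ± 0.26 (SE), adjusted p = 0.00693), and 1 of its 4 infarct libraries lay within the sham range.

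Among receptors Fzd6 rose from 2.20, 1.57, 1.67 and 3.86 CPM to 5.13, 6.18, 5.57 and 8.06 CPM (log2 change 1.30 ± 0.20 (SE), adjusted p = 6.57e-05). Fzd5 rose from 8.27, 7.48, 9.21 and 7.15 CPM to 18.8, 13.2, 30.0 and 17.9 CPM (log2 change 1.21 ± 0.19 (SE), adjusted p = 8.85e-05). Fzd1 was at 105, 101, 129 and 92.8 CPM after infarction (log2 change 0.69 ± 0.12 (SE), adjusted p = 2.51e-04). None of the 3 overlapped with sham. Fzd3 (0.56) and Fzd2 (0.55) were also called higher, Fzd2 not without P56 MI replicate 3 (adjusted p = 0.0576). Fzd7 fell, to 34.4, 45.5, 40.8 and 33.9 CPM (log2 change -0.66 ± 0.15 (SE), adjusted p = 0.00131), below every sham library, and Fzd4 fell from 102, 88.2, 132 and 113 CPM to 63.1, 107, 62.9 and 69.0 CPM with overlap (log2 change -0.55 ± 0.15 (SE), adjusted p = 0.00637). The receptors thus moved in opposite directions within the same libraries.

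Among ligands Wnt11 was at 10.7, 26.4, 13.4 and 12.4 CPM after infarction (log2 change -0.94 ± 0.22 (SE), adjusted p = 0.00243), lower than sham with some overlap. Wnt5b was at 7.75, 8.52, 11.0 and 6.90 CPM in sham and 3.86, 7.67, 4.23 and 4.27 CPM after infarction (log2 change -0.74 ± 0.18 (SE), adjusted p = 0.00256), again with overlap. Wnt6 was lower (1.81 to 3.57 CPM in sham and 0.946 to 1.87 CPM after infarction, log2 change -0.71 ± 0.20 (SE), adjusted p = 0.00795), and Wnt9a was lower at 12.7, 21.3, 16.2 and 16.04 CPM (log2 change -0.50 ± 0.18 (SE), adjusted p = 0.0246). Wnt2 rose, from 0.775, 0.478, 1.04 and 0.900 CPM to 2.11, 2.64, 2.49 and 2.50 CPM (log2 change 1.19 ± 0.21 (SE), adjusted p = 1.81e-04), without overlap. Wnt5b lies antisense to Fbxl14, and whether reads were counted by strand is unknown here, so its level is uncertain to that extent.

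Tcf7 was called higher after adult infarction (log2 change 0.52 ± 0.19 (SE), adjusted p = 0.0285), with overlap, at 1.15 to 1.82 CPM. Axin2 was at 9.43, 4.96, 8.52 and 4.63 CPM in P56 sham and 3.06, 3.93, 3.40 and 3.25 CPM in P56 MI and did not pass in limma (log2 change -0.86 ± 0.35 (SE), adjusted p = 0.0507), although DESeq2 called it. The calls of Wnt9a and Tcf7 were lost in fits without a single library, for Wnt9a P56 sham replicates 2 and 3 or P56 MI replicates 1 and 4 (adjusted p up to 0.0922) and for Tcf7 P56 sham replicates 1 and 4 or P56 MI replicates 2 and 4 (up to 0.0891). Besides these and Fzd2, the other 13 calls held under every alternative. Cardiomyocyte markers summed to 2809 to 5941 CPM in P56 sham and 242 to 1042 CPM in P56 MI fibroblasts (12 of 12 lower), and epicardial and mesothelial markers to 41.1 to 62.6 and 64.4 to 119 CPM (6 of 7 higher). The part of either in these changes was not tested.

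The change after infarction differed between the 2 ages for 13 of the 29 members, 8 with a higher and 5 with a lower value in the adult, against 31.7% of all genes (16.2% higher and 15.5% lower). Dkk2 differed most (log2 difference 2.93 ± 0.33, adjusted p = 1.28e-05): its P1 values were 3.06, 2.10, 3.89 and 3.81 CPM in sham and 1.65, 2.21, 2.48 and 2.73 CPM in MI, so that it was not higher after neonatal infarction. Wnt11 differed in the other direction (-1.53 ± 0.32, adjusted p = 0.00205), with P1 MI libraries at 5.56, 4.94, 6.14 and 6.42 CPM. Fzd5 (1.13 ± 0.27, adjusted p = 0.00533), Fzd3 (0.73 ± 0.21, adjusted p = 0.0146) and Fzd1 (0.70 ± 0.17, adjusted p = 0.00700) also had more positive changes in the adult. These 5 held under every alternative. The other 8 (Fzd6, Dkk3, Wnt2, Fzd8, Wnt6, Wnt5b, Fzd7 and Wnt5a) lost their calls under at least 1, and the count was 8 without P1 sham replicate 3 or P56 MI replicate 4. Dkk3 and Fzd6 lost theirs only without the libraries rich in 18S RNA (adjusted p = 0.0832 and 0.0897).

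**Figure D3:**
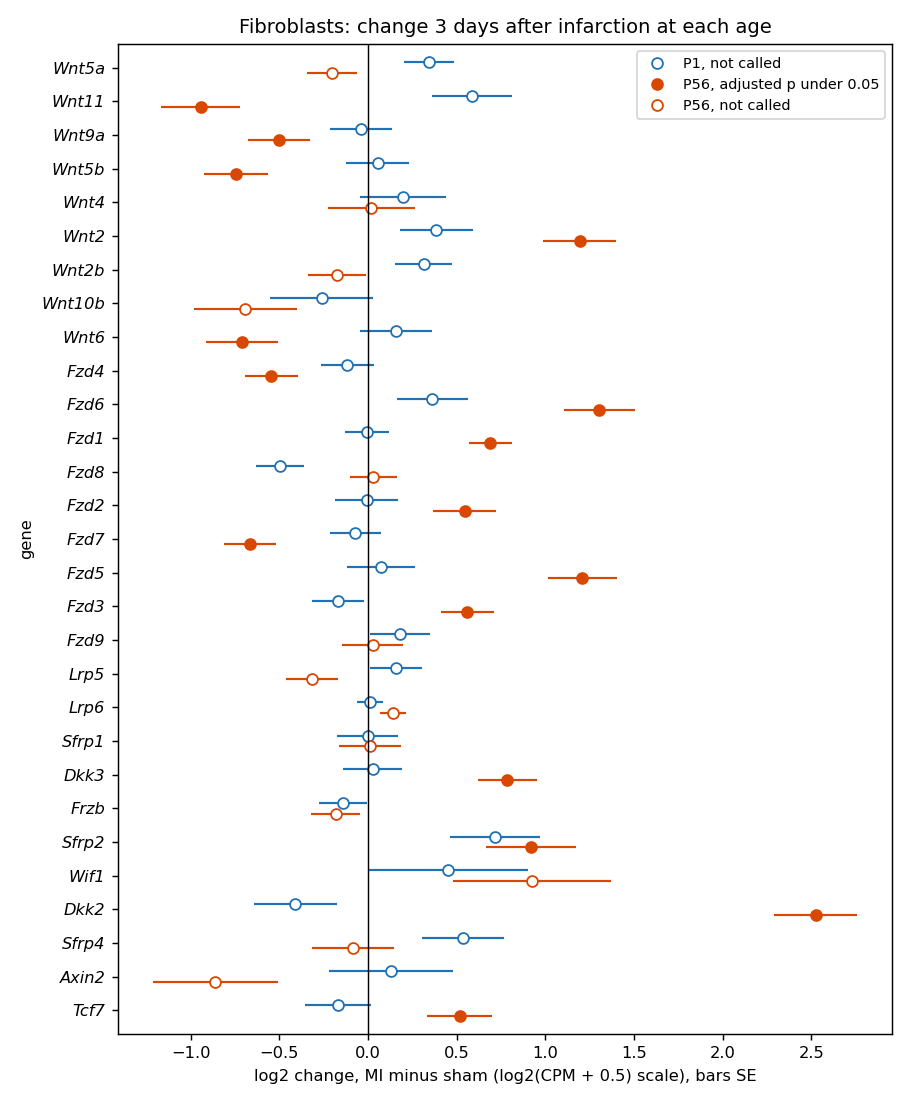
Log2 change after infarction (points, with 1 SE) of each member tested in fibroblasts, at P1 and at P56, ordered by role. At P1 limma calls none, and at P56 Dkk2 (2.53) and Fzd6 (1.30) have the largest rises and Wnt11 (-0.94) the largest fall.

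In the cardiomyocyte fraction members were called mainly with age. Between P1 sham and P56 sham, 6 of the 29 members that passed the filter were higher in the adult and 15 lower, against 70.4% of all genes (33.3% higher and 37% lower). Of the inhibitors 4 of 7 were lower and 1 higher. The median change (log2) was -0.58 for the members that passed the filter and -0.09 for all 15461 genes tested.

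Dkk3 fell from 34.2, 71.3, 60.4 and 77.7 CPM to 3.10, 5.38, 3.58 and 3.93 CPM (log2 change -3.73 ± 0.30 (SE), adjusted p = 3.18e-09). Sfrp2 fell from 4.81, 11.7, 12.3 and 10.5 CPM to 0.124, 0.283, 1.31 and 0.491 CPM (log2 change -3.34 ± 0.31 (SE), adjusted p = 2.55e-08). Sfrp1 fell from 19.9, 31.6, 35.9 and 38.8 CPM to 3.72, 6.23, 8.46 and 3.72 CPM (log2 change -2.44 ± 0.27 (SE), adjusted p = 2.03e-07). All 3 are genes that were highest in sorted fibroblasts, and the 9 fibroblast markers summed to 2485 to 6290.4 CPM in the P1 sham and 319 to 993 CPM in the P56 sham cardiomyocyte libraries (8 of 9 lower, none at 0 in all libraries of a group). Their part in these falls was not tested. Dkk2 fell too, from 1.27 to 2.75 CPM to 0 to 0.189 CPM (log2 change -2.06 ± 0.25 (SE), adjusted p = 6.14e-07). Only its P1 libraries carried it past the filter, so this fall was largely set by the filter.

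Receptors fell as well, 5 of 9 with 1 higher. Fzd3 was at 13.9, 12.0, 9.90 and 12.1 CPM in P1 sham and 3.48, 2.36, 1.07 and 1.89 CPM in P56 sham (log2 change -2.28 ± 0.23 (SE), adjusted p = 8.26e-08). Fzd5 was at 19.7, 21.4, 26.2 and 24.2 and 12.3, 11.0, 5.24 and 12.9 CPM (log2 change -1.17 ± 0.23 (SE), adjusted p = 1.77e-04). For Fzd4 the values were 83.2, 66.6, 96.5 and 99.1 and 44.3, 50.4, 41.4 and 48.2 CPM (log2 change -0.89 ± 0.15 (SE), adjusted p = 4.77e-05). Fzd9 was the exception, from 0.641, 2.20, 1.56 and 0.724 CPM to 5.96, 2.83, 5.84 and 5.26 CPM (log2 change 1.66 ± 0.35 (SE), adjusted p = 3.99e-04), and its adult cardiomyocyte level was above that in any sorted population, whose group means did not exceed 1.45 CPM. Neither Fzd3, Fzd5, Fzd4 nor Fzd9 overlapped between ages. Endothelial markers, whose cells have the highest Fzd4 and Wnt2 levels, summed to 2369 to 3799 CPM in P1 sham and 1046 to 1670.5 CPM in P56 sham of this fraction (8 of 10 lower). Epicardial and mesothelial markers summed to 132 to 239 and 15.4 to 19.1 CPM (7 of 7 lower), leukocyte markers to 91.4 to 212 and 15.4 to 72.1 CPM (7 of 8 lower), and the cardiomyocyte markers themselves to 43540.5 to 70038 and 180135 to 211465 CPM (12 of 12 higher). The part of any of these in the age changes was not tested.

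Of 8 ligands 4 were lower and 2 higher in the adult cardiomyocyte fraction. Wnt2 fell from 2.76, 1.86, 3.84 and 4.74 CPM to 0.372, 0.377, 0.715 and 0.421 CPM (log2 change -1.92 ± 0.24 (SE), adjusted p = 8.87e-07), and Wnt4 from 0.721, 2.37, 3.16 and 3.51 CPM to 0.124, 0.849, 0.477 and 0.140 CPM with overlap (log2 change -1.65 ± 0.36 (SE), adjusted p = 4.44e-04). Both passed the filter mainly through P1 libraries (P56 MI means 0.321 and 0.879 CPM), so these falls were largely set by the filter. Wnt11, also higher in adult fibroblasts, rose from 1.28, 2.03, 3.50 and 2.50 CPM to 7.70, 4.62, 7.27 and 7.99 CPM (log2 change 1.42 ± 0.27 (SE), adjusted p = 1.18e-04), and Wnt9a rose from 4.24, 6.34, 5.88 and 4.96 CPM to 16.3, 14.1, 8.58 and 10.2 CPM (log2 change 1.10 ± 0.21 (SE), adjusted p = 1.55e-04). The co-receptor Lrp5 rose from 40.2, 68.2, 79.9 and 58.9 CPM to 151, 127, 176 and 119 CPM (log2 change 1.23 ± 0.27 (SE), adjusted p = 4.37e-04). Wnt11, Wnt9a and Lrp5 showed no overlap between ages.

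The 3 readouts did not move together. Axin2 rose from 2.00, 6.59, 2.48 and 3.40 CPM to 6.83, 7.45, 9.65 and 7.78 CPM (log2 change 1.14 ± 0.26 (SE), adjusted p = 8.01e-04), whereas Tcf7 (1.60 to 4.23 CPM to 0.350 to 0.566 CPM, log2 change -1.79 ± 0.27 (SE), adjusted p = 8.67e-06) and Lef1 (log2 change -1.25 ± 0.21 (SE), adjusted p = 3.33e-05) fell. Tcf7 and Lef1 passed the filter mainly through P1 libraries, with P56 MI means of 0.619 and 0.156 CPM. Their falls were thus largely set by the filter. The high neonatal Axin2 value came from P1 sham replicate 2, in which 16.6% of reads were 18S RNA. Fzd6, Wnt5a and Fzd1 (lower) and Sfrp5 (higher) were called, but each lost its call under at least 1 alternative (adjusted p up to 0.181, for Wnt5a).

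After neonatal infarction limma called no member in the cardiomyocyte fraction, against 0.343% of all genes (0.285% higher and 0.0582% lower). At an unadjusted p under 0.05 there were 4 (Lrp5, Fzd4, Wnt4 and Dkk2), and edgeR and DESeq2 each called 0. The share of all genes at that unadjusted level is not given here, so the 4 are not set apart by it. Lrp5 was at 40.2, 68.2, 79.9 and 58.9 CPM in P1 sham and 47.1, 54.4, 36.0 and 26.9 CPM in P1 MI (log2 change -0.59 ± 0.27 (SE), adjusted p = 0.406).

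After adult infarction 3 of 29 members were called, all higher and all secreted inhibitors, against 9.69% of all genes (8.66% higher and 1.03% lower). Sfrp2 rose from 0.124, 0.283, 1.31 and 0.491 CPM to 1.82, 2.58, 2.53 and 2.86 CPM (log2 change 1.59 ± 0.31 (SE), adjusted p = 0.00233) and its infarct libraries lay above every sham library. Dkk3 rose to 12.0, 5.24, 12.3 and 7.29 CPM (log2 change 1.06 ± 0.30 (SE), adjusted p = 0.0285) and Sfrp1 to 13.1, 7.17, 12.5 and 9.98 CPM (log2 change 0.93 ± 0.27 (SE), adjusted p = 0.0321), both with overlap. The fibroblast markers moved alongside, from 319 to 993 CPM in P56 sham to 1514 to 3343 CPM in P56 MI (3 of 9 higher), as did leukocyte markers (15.4 to 72.1 to 97.3 to 330.4 CPM, 8 of 8 higher). The part of other cells in these 3 rises was not tested.

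The count of 3 was sensitive to single libraries. It was 1 without P56 sham replicate 1, P56 sham replicate 4 or P56 MI replicate 1, and also 1 without the libraries rich in 18S RNA. It was 5 without P56 MI replicate 3 and 6 without P56 MI replicate 2. Sfrp2 alone was called under every alternative, Dkk3 had an adjusted p of up to 0.105 and Sfrp1 of up to 0.124. The change of Sfrp2 was the only one that differed between ages (1.75 ± 0.44, adjusted p = 0.0486, against 1.75% of all genes (1.69% higher and 0.0582% lower)), and this was lost in most fits that left out 1 library (adjusted p up to 0.133). Those libraries were P1 sham replicates 2, 3 and 4, P56 sham replicates 1, 2 and 4, P1 MI replicates 1, 2, 3 and 4 or P56 MI replicates 1 and 4. The count of members that differed was 2 without P56 MI replicate 2 and 4 without P56 MI replicate 3.

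**Figure D4:**
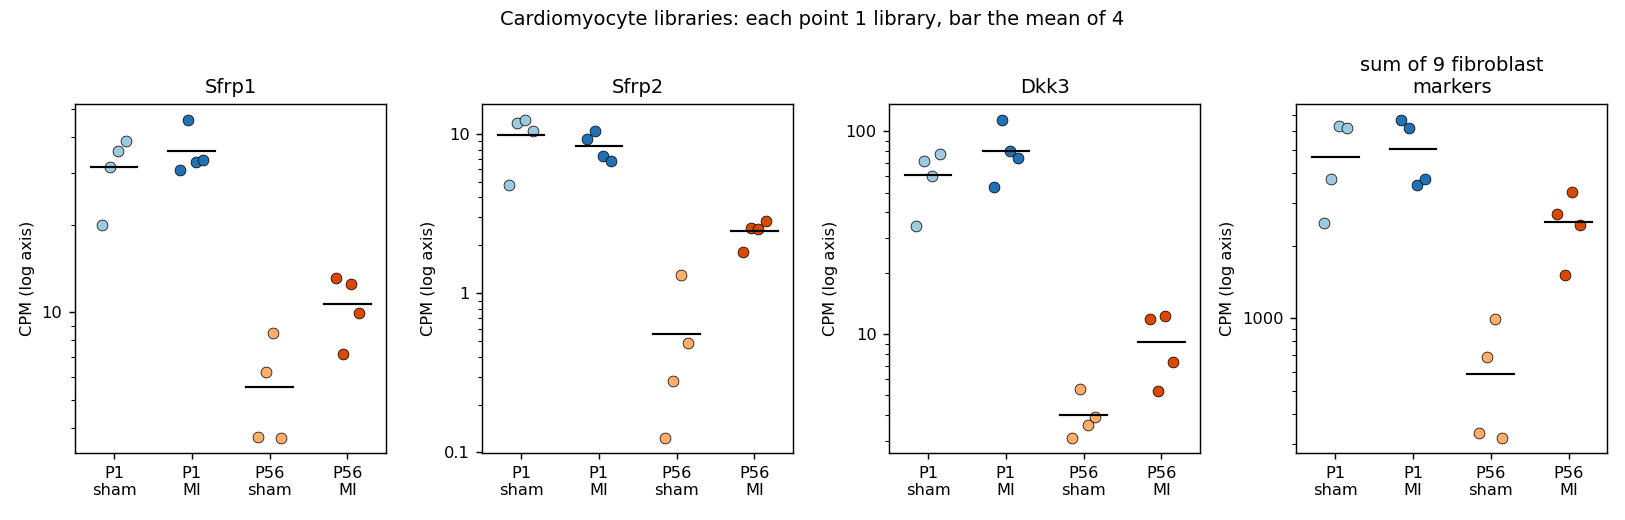
CPM in each cardiomyocyte-fraction library (points, log axis) with the mean of 4 (bars) for Sfrp1, Sfrp2 and Dkk3, beside the summed CPM of 9 fibroblast markers. In all 4 panels the mean falls between P1 sham and P56 sham and lies higher in P56 MI than in P56 sham, with some libraries of the last 2 groups overlapping for Sfrp1 and Dkk3.

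Leukocyte libraries changed after infarction at both ages. The amounts of other cells' RNA differed between the same libraries. Endothelial markers summed to 3734 to 4409 CPM in P1 sham, 439.9 to 789.6 CPM in P1 MI, 395 to 578 CPM in P56 sham and 142 to 232 CPM in P56 MI. Cardiomyocyte markers summed to 18311 to 24058 CPM in P1 sham, 5502 to 15208 CPM in P1 MI, and their adult values are given above. Mural markers summed to 1482 to 1867, 263 to 517, 1095 to 2009.8 and 152 to 412 CPM in the same order. Leukocyte markers themselves summed to 1419.8 to 2094, 4004 to 4855, 1476 to 2836 and 4313 to 5529 CPM. No marker of these 4 lists was at 0 in all libraries of a group, and their part in the changes below was not tested.

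After neonatal infarction 4 members were higher and 5 lower of the 28 that passed the filter, against 45.2% of all genes (22.6% higher and 22.6% lower). The median log2 change was -0.03 for the members that passed the filter and -0.01 for all 16239 genes tested. Fzd4 fell from 65.7, 87.3, 74.9 and 66.3 CPM in P1 sham to 21.8, 15.7, 21.5 and 13.5 CPM in P1 MI (log2 change -2.01 ± 0.17 (SE), adjusted p = 2.57e-07). Fzd6 fell from 32.7, 41.9, 36.2 and 28.5 CPM to 12.1, 10.6, 12.7 and 10.5 CPM (log2 change -1.55 ± 0.21 (SE), adjusted p = 1.95e-05). Fzd8 fell from 16.7, 18.6, 19.0 and 13.4 CPM to 7.97, 5.86, 7.21 and 6.93 CPM (log2 change -1.21 ± 0.24 (SE), adjusted p = 6.64e-04). Fzd4 and Fzd6 have their highest levels in endothelial cells. Wif1, highest in the cardiomyocyte fraction, fell from 2.30, 2.30, 3.16 and 3.03 CPM to 0.623, 0.717, 1.23 and 0.802 CPM (log2 change -1.26 ± 0.29 (SE), adjusted p = 0.00249).

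Among the members that rose, Wnt6 went from 0.259 to 0.449 CPM in P1 sham to 1.62 to 3.58 CPM in P1 MI (log2 change 1.64 ± 0.24 (SE), adjusted p = 5.40e-05) and reached a higher group mean in P56 sham fibroblasts alone. Its P56 sham leukocyte mean was also low, 0.428 CPM, so it passed the filter mainly through infarct libraries. The rise was thus largely set by the filter, and its p-value adds no support. Lrp5 rose from 81.6, 90.0, 68.2 and 77.6 CPM to 115, 124, 115 and 105 CPM (log2 change 0.53 ± 0.11 (SE), adjusted p = 7.77e-04). Fzd7 was higher as well, at 14.6, 16.2, 18.1 and 17.3 and 20.2, 24.8, 19.3 and 22.5 CPM (log2 change 0.38 ± 0.14 (SE), adjusted p = 0.0332). Lrp5, Fzd7 and Wnt6 showed no overlap. Wnt5a was at 4.63, 7.45, 6.66 and 3.82 CPM in P1 sham and 12.9, 12.1, 6.82 and 12.7 CPM in P1 MI (log2 change 0.92 ± 0.32 (SE), adjusted p = 0.0285), with overlap. Fibroblast markers in these libraries summed to 3035 to 4926 CPM in P1 sham and 4221 to 7468 CPM in P1 MI, and their part in the rises was not tested. How many of these markers rose is not given here, and a few strong genes can carry such a sum.

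The calls of Fzd7, Wnt5a and Sfrp5 depended on single libraries. They were lost for Fzd7 without P1 sham replicates 1 and 2 or P1 MI replicates 2 and 4 (adjusted p up to 0.104), for Wnt5a without P1 sham replicates 1 and 4 or P1 MI replicates 1, 2 and 4 (up to 0.103) and for Sfrp5 without P1 MI replicates 1 and 2 (up to 0.0714).

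After adult infarction 5 members were higher and 12 lower, 17 of 28, against 59.5% of all genes (30.7% higher and 28.8% lower). Median log2 changes were -0.30 for the members that passed the filter and 0.02 for all 16239 genes tested. Wif1 had the largest fall, from 15.9, 4.56, 6.29 and 12.8 CPM to 0.694, 0.948, 1.13 and 0.590 CPM (log2 change -2.81 ± 0.29 (SE), adjusted p = 1.49e-06). Fzd6 fell from 22.4, 12.3, 14.5 and 15.6 CPM to 4.57, 4.70, 3.94 and 2.16 CPM (log2 change -1.96 ± 0.21 (SE), adjusted p = 1.57e-06), and Fzd4 from 32.7, 21.0, 25.8 and 27.9 CPM to 9.77, 10.7, 9.99 and 7.36 CPM (log2 change -1.45 ± 0.17 (SE), adjusted p = 3.78e-06). These 3 fell at both ages and without overlap.

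Fzd8 fell from 11.5, 5.47, 4.83 and 5.30 CPM to 1.91, 2.63, 2.30 and 1.18 CPM (log2 change -1.49 ± 0.24 (SE), adjusted p = 6.39e-05). Lrp6 fell from 215, 192, 218 and 212 CPM to 122, 147, 112 and 105 CPM (log2 change -0.79 ± 0.10 (SE), adjusted p = 1.07e-05). Wnt5a, the ligand that was higher after neonatal infarction, was lower here, at 20.1, 7.16, 6.03 and 8.62 CPM in sham and 4.11, 4.57, 5.00 and 2.48 CPM after infarction (log2 change -1.16 ± 0.32 (SE), adjusted p = 0.00586). Wnt5b (1.24 to 2.85 CPM to 0.118 to 0.474 CPM, log2 change -1.41 ± 0.23 (SE), adjusted p = 7.75e-05) and Wnt9a (3.10 to 7.88 CPM to 0.787 to 2.28 CPM, log2 change -1.21 ± 0.28 (SE), adjusted p = 0.00156) were lower too, neither with overlap.

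Sfrp2 had the largest rise, from 0.391, 0.905, 1.37 and 1.21 CPM to 2.14, 13.1, 8.39 and 2.60 CPM (log2 change 1.99 ± 0.42 (SE), adjusted p = 7.73e-04). Wnt4 was at 1.06, 2.91, 2.48 and 1.81 CPM in sham and 3.93, 6.72, 5.22 and 3.70 CPM after infarction (log2 change 1.10 ± 0.22 (SE), adjusted p = 5.35e-04). Dkk2 (0.83), Wnt6 (0.80) and Fzd7 (0.77) were also higher, and none of the 5 overlapped with sham. As noted above, Wnt6 passed the filter mainly through infarct libraries. Fibroblast markers summed to 515 to 1621 CPM in P56 sham and 2247 to 7096 CPM in P56 MI leukocyte libraries, and their part was not tested. Here too the sum does not show how many of these markers rose. Fzd3, Tcf7 and Dkk3 were called lower with overlap, and each lost its call without at least 4 single libraries in turn (adjusted p up to 0.152 for Fzd3, 0.120 for Tcf7 and 0.130 for Dkk3).

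The change in leukocytes differed between ages for 9 members (2 higher and 7 lower in the adult, against 45.2% of all genes (23.7% higher and 21.5% lower)). Wnt5a (-2.08 ± 0.46, adjusted p = 0.00186) and Lrp6 (-0.87 ± 0.15, adjusted p = 2.71e-04) were among the lower ones, with Wnt9a (-1.56 ± 0.40, adjusted p = 0.00488) and Wif1 (-1.55 ± 0.42, adjusted p = 0.00667). Wnt4 (1.09 ± 0.32, adjusted p = 0.0108) and Dkk2 (0.93 ± 0.30, adjusted p = 0.0196) were the 2 higher ones. For Wnt5a the P1 and P56 changes were called in opposite directions. Lrp5 lost its call without the libraries rich in 18S RNA, and Wnt5b in most fits that left out 1 library (adjusted p up to 0.0974).

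**Figure D5:**
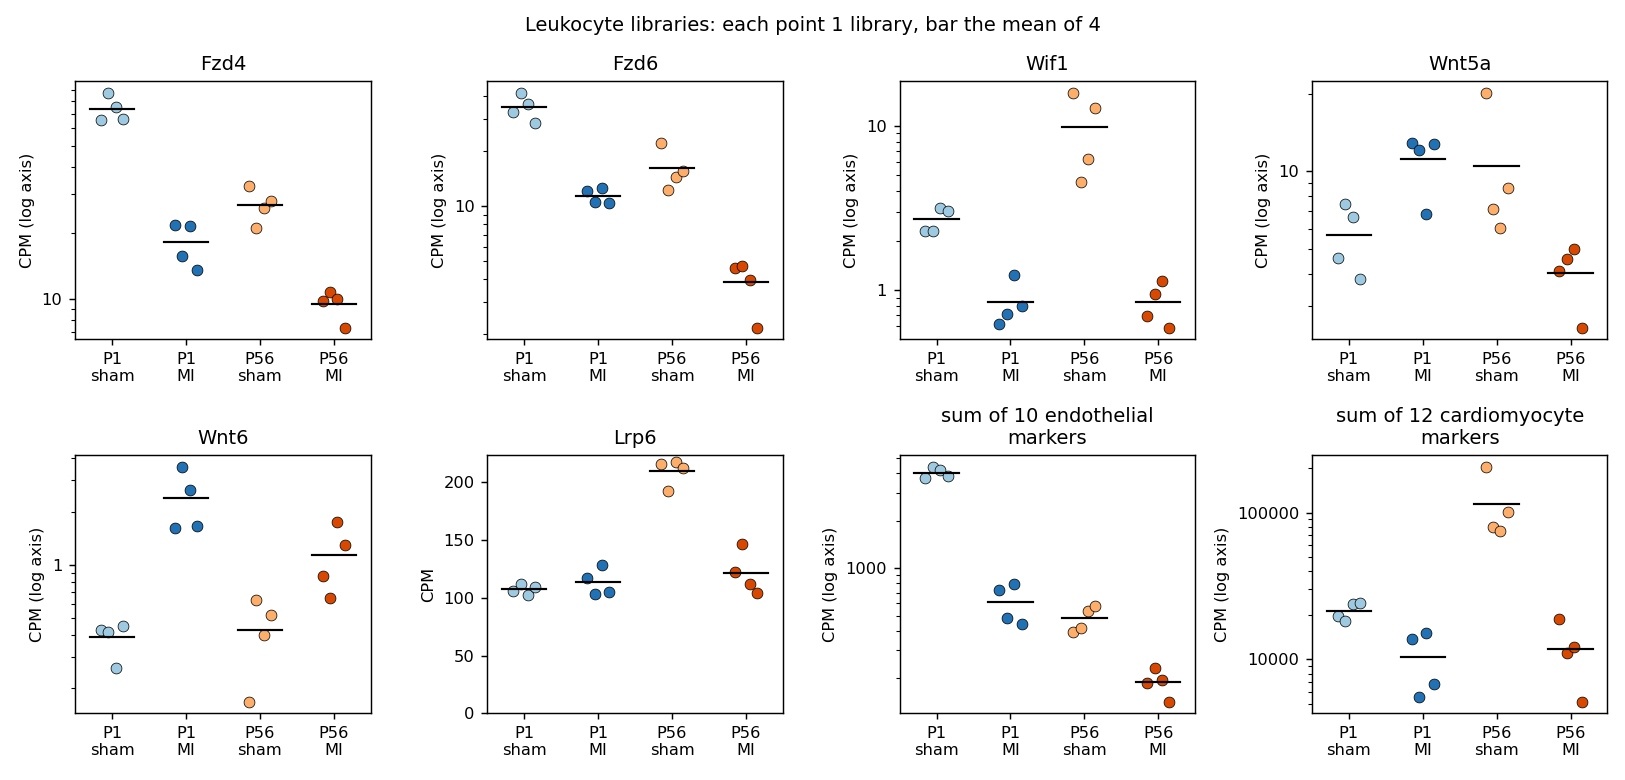
CPM in each leukocyte library (points) with the mean of 4 (bars) for Fzd4, Fzd6, Wif1, Wnt5a, Wnt6 and Lrp6 (all on log axes but Lrp6), and the summed CPM of 10 endothelial and 12 cardiomyocyte markers. Fzd4, Fzd6 and Wif1 are lower after infarction at both ages, as are both marker sums, whereas Wnt6, which passed the filter mainly through infarct libraries, is higher at both.

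With age in the sham leukocyte libraries 4 members were higher and 11 lower of 28, against 67.1% of all genes (32.5% higher and 34.5% lower). No Frizzled gene was higher and 5 of 8 were lower. Fzd4 fell with age (values above, log2 change -1.45 ± 0.17 (SE), adjusted p = 1.82e-06), and so did Fzd8 (log2 change -1.33 ± 0.24 (SE), adjusted p = 1.27e-04), Fzd6 (log2 change -1.10 ± 0.21 (SE), adjusted p = 1.96e-04) and Fzd5 (28.0, 22.4, 31.2 and 33.2 CPM to 18.2, 9.83, 9.04 and 9.01 CPM, log2 change -1.33 ± 0.21 (SE), adjusted p = 4.35e-05). Dkk2 (log2 change -1.39 ± 0.21 (SE), adjusted p = 2.67e-05), Sfrp2 (log2 change -1.62 ± 0.42 (SE), adjusted p = 0.00299) and Wnt4 (log2 change -0.90 ± 0.22 (SE), adjusted p = 0.00203) were lower in the adult. Wif1 (log2 change 1.55 ± 0.29 (SE), adjusted p = 2.14e-04) and Lrp6 (log2 change 0.96 ± 0.10 (SE), adjusted p = 7.56e-07) were higher. The markers differed between the same groups: fibroblast markers summed to 3035 to 4926 CPM in P1 sham and 515 to 1621 CPM in P56 sham (6 of 9 lower, 1 higher), neutrophil markers to 1451 to 2923 and 6.80 to 50.6 CPM (7 of 8 lower) and macrophage markers to 2409.7 to 3199 and 4867 to 10049 CPM (8 of 8 higher), and the endothelial and cardiomyocyte sums given above differed as well. Their part in the age changes was not tested. Tcf7, a T cell factor gene, was at 5.10, 5.15, 10.2 and 5.72 CPM in P1 sham and 5.54, 3.30, 2.97 and 2.97 CPM in P56 sham (log2 change -0.73 ± 0.28 (SE), adjusted p = 0.0293), with overlap. The calls of Wnt9a, Wnt5b, Wnt2 and Tcf7 were lost in 4 or more fits without a single library, the highest adjusted p being 0.172 for Wnt9a, 0.0738 for Wnt5b, 0.123 for Wnt2 and 0.116 for Tcf7.

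Endothelial members changed with age and little with infarction. Of the 26 that passed the filter 8 were higher in P56 sham and 13 lower, against 62.9% of all genes (33.6% higher and 29.3% lower), with 7 of 9 Frizzled genes lower and 1 higher. As a whole, log2 changes had a median of -0.47 for the members that passed the filter and 0.05 for all 15706 genes tested. Wnt9b rose with age (log2 change 1.48 ± 0.22 (SE), adjusted p = 1.61e-05), as the values above show, without overlap. Wnt9a rose from 0.658 to 1.20 CPM to 2.10 to 3.21 CPM (log2 change 1.25 ± 0.15 (SE), adjusted p = 1.96e-06). Wnt11 fell from 4.59, 7.39, 9.53 and 6.61 CPM to 1.32, 1.34, 1.31 and 1.24 CPM (log2 change -2.02 ± 0.29 (SE), adjusted p = 1.44e-05), the reverse of its direction in fibroblasts and in the cardiomyocyte fraction.

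Of the endothelial receptors Fzd5 fell from 24.6, 40.3, 32.2 and 32.1 CPM to 8.54, 6.07, 8.10 and 7.22 CPM (log2 change -2.03 ± 0.16 (SE), adjusted p = 1.36e-08). Fzd3 was at 7.69, 6.98, 8.41 and 6.96 CPM in P1 sham and 4.23, 2.58, 2.62 and 3.03 CPM in P56 sham (log2 change -1.17 ± 0.15 (SE), adjusted p = 3.53e-06). Fzd8 was at 33.4, 38.5, 35.8 and 31.0 and 18.4, 13.5, 15.7 and 15.6 CPM (log2 change -1.11 ± 0.10 (SE), adjusted p = 7.37e-08). Fzd10 (1.76 to 2.50 CPM to 0.0503 to 0.793 CPM, log2 change -1.66 ± 0.21 (SE), adjusted p = 4.11e-06) passed the filter in endothelial cells alone. It did so mainly through its P1 libraries, with P56 means of 0.394 CPM in sham and 0.219 CPM in MI. Its fall was thus largely set by the filter, and its p-value adds no support. Dkk2 fell from 5.00, 6.00, 3.72 and 4.60 CPM to 1.14, 0.813, 0.654 and 0.812 CPM (log2 change -1.97 ± 0.17 (SE), adjusted p = 2.95e-08) and Tcf7 from 4.56, 8.05, 5.69 and 7.09 CPM to 1.67, 1.58, 1.41 and 1.32 CPM (log2 change -1.75 ± 0.21 (SE), adjusted p = 1.85e-06). None of these 6 overlapped between ages.

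The co-receptors Lrp5 (0.33 ± 0.11, adjusted p = 0.0145) and Lrp6 (0.37 ± 0.10, adjusted p = 0.00302) were both slightly higher in adult endothelial cells. Fzd4 was also called higher (0.22), but edgeR and DESeq2 on recovered reads did not call it, and neither did limma without P1 sham replicates 2 and 4 or P56 sham replicates 2 and 3 (adjusted p up to 0.131). Cardiomyocyte markers in the endothelial libraries summed to 657 to 2407 CPM in P1 sham and 9104 to 20780.4 CPM in P56 sham (12 of 12 higher), and mural markers to 1029 to 1174 and 3236 to 4321 CPM (8 of 8 higher). Epicardial and mesothelial markers summed to 110.3 to 129.9 and 41.5 to 68.8 CPM (3 of 7 lower). The part of these lists in the age differences was not tested.

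After neonatal infarction limma called no endothelial member, against 0.216% of all genes (0.0891% higher and 0.127% lower). At an unadjusted p under 0.05 there were 9, edgeR called 0 and DESeq2 called 1, Fzd8 (33.4, 38.5, 35.8 and 31.0 CPM in P1 sham and 24.8, 23.7, 22.8 and 28.1 CPM in P1 MI, limma log2 change -0.47 ± 0.10 (SE), adjusted p = 0.0563). The shares of all genes at that unadjusted level, or called by edgeR or DESeq2, are not given here. These counts therefore do not set the members apart. Without P1 sham replicate 4, whose fibroblast markers summed to the highest value of that group (1149 to 3983 CPM over its 4 libraries), 4 members were called, and 1 was without P1 MI replicate 4 or P56 MI replicate 2.

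After adult infarction 1 of 26 endothelial members was called, against 20.4% of all genes (12.5% higher and 7.88% lower). Dkk2 rose from 1.14, 0.813, 0.654 and 0.812 CPM to 1.54, 1.42, 1.64 and 1.62 CPM (log2 change 0.61 ± 0.17 (SE), adjusted p = 0.0157). In the same libraries mural markers summed to 3236 to 4321 CPM in P56 sham and 1446 to 2215 CPM in P56 MI (6 of 8 lower) and leukocyte markers to 16.6 to 26.8 and 59.6 to 152 CPM (7 of 8 higher). Fibroblast markers, from the cells in which Dkk2 rose most, summed to 938 to 1195 CPM in P56 sham and 1377 to 2992 CPM in P56 MI. How many of the fibroblast markers rose is not given here, and a few strong genes can carry such a sum. The part of these lists was not tested. Dkk2 was not called without P56 sham replicate 3 (adjusted p = 0.0529), whereas 2 members were called without P1 sham replicate 1, P56 sham replicate 1 or P1 MI replicate 3, and 5 without P56 MI replicate 2. The change differed between ages for Fzd5 (0.89 ± 0.23, adjusted p = 0.0300) and Fzd8 (0.56 ± 0.14, adjusted p = 0.0300), against 5.41% of all genes (3.39% higher and 2.02% lower). For Fzd8 this call was lost without P1 sham replicates 2 and 3, P56 sham replicates 2 and 3, P1 MI replicates 1, 2 and 3 or P56 MI replicate 1, and for Fzd5 without P1 sham replicates 2 and 3, P56 sham replicate 2, P1 MI replicates 2 and 3 or P56 MI replicates 3 and 4.

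Age was also compared across populations. Of the 24 members tested in all 4 populations, 5 (Dkk2, Fzd3, Fzd5, Tcf7 and Wnt4) were lower in P56 sham than in P1 sham in every one, against 11.3% of the 13729 genes tested in all 4. Tcf7 is in this count by a leukocyte call that was lost in 4 fits without a single library (adjusted p up to 0.116). In the cardiomyocyte fraction Dkk2, Tcf7 and Wnt4 passed the filter mainly through P1 libraries, as noted above. Fzd3 had log2 changes of -2.28 in the cardiomyocyte fraction, -1.90 in fibroblasts, -1.11 for leukocytes and -1.17 for endothelial cells. Those of Dkk2 were -2.06, -2.12, -1.39 and -1.97 in the same order. Wnt9a alone was higher in all 4 (1.10, 0.58, 0.67 and 1.25), against 8.34% of genes, its leukocyte call being lost in several fits as noted above. Another 5 (Fzd4, Fzd7, Sfrp1, Wnt11 and Wnt2b) were called in opposite directions in 2 or more populations, and the share of all genes so called was not counted. Fzd7 is among them by its fibroblast call and Fzd4 by its endothelial call, both lost in several alternative fits (adjusted p up to 0.163 and 0.131). Whether changes differed between populations was not tested.

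Dkk2 was also called higher after adult infarction in 3 populations, with log2 changes of 2.53 in the fibroblasts, 0.83 in the leukocytes and 0.61 in the endothelial cells. In the cardiomyocyte fraction it was at 0 to 0.189 CPM in P56 sham and 0 to 0.316 CPM in P56 MI (log2 change 0.21 ± 0.25 (SE), adjusted p = 0.649). In leukocytes and endothelial cells the P56 MI means (0.937 and 1.55 CPM) stayed below the P1 sham means (1.61 and 4.83 CPM), whereas in fibroblasts the P56 MI libraries (3.02 to 7.34 CPM) overlapped with P1 sham (2.10 to 3.89 CPM). Fibroblast marker sums were higher in P56 MI than in P56 sham for both the leukocyte and the endothelial libraries, as given above, and their part was not tested.

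A further list of pathway genes (59 in the table, with R-spondins, glypicans, planar polarity and cytoplasmic components) showed how the members sat among their partners. In adult fibroblasts after infarction 12 of 52 tested were higher and 11 lower, against 24.8% and 25.2% of all genes. Cthrc1, a secreted collagen-like protein of activated fibroblasts that binds Wnt-Frizzled complexes, had the smallest adjusted p (log2 change 7.39, adjusted p = 1.49e-11), followed by the lower Reck (-1.03), Tle2 (-0.86) and Tle4 (-0.65), the Tle genes being corepressors that bind TCF/LEF factors. After neonatal infarction only the R-spondin genes Rspo1 (1.36, adjusted p = 0.00948) and Rspo2 (1.03, adjusted p = 0.0219), which amplify Wnt signals, were called in fibroblasts, against 2.37% of all genes. With age 11 fibroblast genes were higher and 22 lower of 52 (34.8% and 32.2% of all genes), led by Gpc3 (-3.36), Cthrc1 (-6.89), Ctnnbip1 (-1.52) and Ptk7 (-2.39).

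In the cardiomyocyte fraction 10 of the 52 were higher and 26 lower with age (33.3% and 37% of all genes), led by Gpc3 (-4.40), Vangl2 (-2.71), Ror2 (-3.02) and Rspo1 (-2.89). After adult infarction 4 were higher (8.66% of all genes): Cthrc1 (3.45), Nkd2 (1.12), Gpc4 (0.84) and Adgra2 (0.98). After neonatal infarction Ctnnbip1 was lower (-0.91), against 0.0582% of all genes. In leukocytes 8 of 50 were higher and 24 lower with age, against 32.5% and 34.5% of all genes. Those with the smallest adjusted p were Ctnnbip1 (-1.89) and the planar polarity genes Ptk7 (-3.26) and Vangl2 (-2.03), with Cthrc1 (-3.79).

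Leukocytes had 7 of these genes higher and 21 lower after neonatal infarction, against 22.6% and 22.6% of all genes. Those with the smallest adjusted p were Ctnnbip1 (-0.96), Prickle2 (-1.38), Ctnnb1, the β-catenin gene (-0.76), and Tspan12 (-2.14), a partner of Fzd4. After adult infarction 9 were higher and 23 lower (30.7% and 28.8% of all genes), led by Cthrc1 (3.80), Pygo1 (-2.90), Lgr4 (-2.03) and Tspan12 (-2.26). Tspan12 and Fzd4 both fell in leukocytes at both ages. Endothelial markers fell in the same libraries, and their part was not tested. In endothelial cells 9 of 50 were higher and 21 lower with age (33.6% and 29.3% of all genes), led by Ptk7 (-2.87), Vangl2 (-1.20), Celsr2 (-1.42) and Tle2 (1.70). After adult infarction 6 were higher and 4 lower (12.5% and 7.88% of all genes), with Cthrc1 (2.11), Ptk7 (0.76), Prickle1 (-0.78) and Pygo1 (-0.77) first.

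The readout Axin2 was not called by limma after infarction in any population at either age (DESeq2 called it in adult fibroblasts, as noted above). Its group means lay between 2.45 and 7.93 CPM. It was called higher with age in the cardiomyocyte fraction and in endothelial cells (2.39, 2.63, 2.29 and 2.49 CPM to 4.05, 3.68, 3.92 and 3.21 CPM, log2 change 0.51 ± 0.16 (SE), adjusted p = 0.00874). In P1 sham its values were 3.47, 3.98, 2.39 and 13.5 CPM in fibroblasts and 1.98, 2.51, 2.77 and 9.43 CPM in leukocytes. The highest value in each, and in the P1 sham cardiomyocyte fraction, came from a library with more than 5% of 18S reads. Lef1, which did not exceed a group mean of 1.60 CPM, was tested in the cardiomyocyte and leukocyte libraries alone.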

How the data were processed

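RNA from 64 libraries (16 groups of 4) was depleted of ribosomal RNA, made into stranded libraries and read as single ends of 50 bases, per the labels' protocols. Trimmomatic, STAR, HTSeq and edgeR, with the builds mm10, GRCm38 and GRCh38, are named in the submitters' processing notes; versions, the strand setting of the counting and the role of GRCh38 are not given in the sources used here. The values are CPM deposited by the authors in 1 table, with a gene length in bases. The columns do not sum to a common total, so this deposited signal is reads over a library size that the authors scaled. Whole reads were recovered from them: 100% of values were whole within 0.01 of a read, and depth was 9587688 to 27542141 reads a library.

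The members and gene lists were chosen with earlier results of these data known. Each population was fitted with limma 3.58.1 (trend; R 4.3.3) on log2(CPM + 0.5) over genes with at least 1 CPM in 4 of its 16 libraries, without the replicate number; p-values were adjusted over all genes (Benjamini-Hochberg, threshold 0.05). Sham libraries of the 4 populations were compared in 1 fit (log2 difference of at least 1). The fits were tested on simulated data. The recovered reads were also tested with edgeR 4.0.16 and DESeq2 1.42.0. Other pseudocounts (0.1 and 1), filters (none, 5 CPM), scaling and left-out libraries were further alternatives. No 2 libraries held identical values. Counting error alone sets the 3-read level.

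Library values are given for members reaching 5 CPM in some group mean that were highest in 1 population or, within their role, among the 4 largest called changes; members below 1 CPM in every group mean appear only as counts and ranges; of other pathway genes up to 4 called ones with the smallest adjusted p are named. Wnt11 was left out of comparisons per kb, its deposited length (634 bases) being far below its annotated exons (4137 bases). Some members share ground with other annotated genes on the same strand (Fzd3, Wnt2b, Lef1, Tcf7), so their counts are uncertain to that extent.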

Additional observations from a re-analysis of the deposited data

Results flagged for a closer look

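In 14 of 251 groups of 4 library values, 1 library stood apart from the other 3 by Dixon's test, about as many as the 1 in 20 that chance gives. In fibroblasts these were Fzd2 at 47.5 CPM in P56 MI replicate 3, Fzd4 at 107 CPM and Wnt5b at 7.67 CPM in P56 MI replicate 2, Fzd5 at 23.2 CPM in P1 MI replicate 4, Lrp5 at 160.0 CPM in P56 sham replicate 2 and Axin2 at 13.5 CPM in P1 sham replicate 4. The other fibroblast values of Fzd2 in P56 MI lay below, its 4 libraries holding 26.9, 24.8, 47.5 and 25.5 CPM. P1 sham fibroblast replicate 4 is the library with 26.1% of 18S reads, and whether that bears on its Axin2 value was not tested.

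In leukocytes the libraries apart were P56 sham replicate 1 for Fzd5 (18.2 CPM) and Fzd8 (11.5 CPM), P1 MI replicate 3 for Wnt5a (6.82 CPM) and P1 sham replicate 3 for Tcf7 (10.2 CPM). In endothelial cells Sfrp1 was apart in P1 sham replicate 4 (11.5 CPM) and in P56 sham replicate 2 (4.64 CPM), and Fzd7 in P56 MI replicate 3 (11.3 CPM). The first of these libraries also held the highest fibroblast marker sum of its group. In the cardiomyocyte fraction Fzd1 was apart in P56 MI replicate 2 (15.0 CPM).

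The change after infarction differed between P1 and P56 for 25 member and population pairs (interaction term in limma, adjusted p under 0.05 over all genes). These were 13 of 29 members in fibroblasts (31.7% of all genes) and 9 of 28 in leukocytes (45.2%). Endothelial cells had 2 of 26 (5.41%) and the cardiomyocyte fraction 1 of 29 (1.75%). Values are log2 differences, adult minus neonatal change. In fibroblasts they were 2.93 for Dkk2, 1.13 for Fzd5, 0.94 for Fzd6, 0.81 for Wnt2, 0.76 for Dkk3, 0.73 for Fzd3, 0.70 for Fzd1, 0.53 for Fzd8, -0.55 for Wnt5a, -0.59 for Fzd7, -0.80 for Wnt5b, -0.87 for Wnt6 and -1.53 for Wnt11. In leukocytes they were 1.09 for Wnt4, 0.93 for Dkk2, -0.48 for Lrp5, -0.84 for Wnt5b, -0.87 for Lrp6, -0.98 for Wnt2b, -1.55 for Wif1, -1.56 for Wnt9a and -2.08 for Wnt5a. In endothelial cells they were 0.89 for Fzd5 and 0.56 for Fzd8, and in the cardiomyocyte fraction 1.75 for Sfrp2.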

How the results depend on the processing

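Of 165 member calls, 122 held under every alternative run, 43 were lost under at least 1 and 0 turned direction. Away from single left-out libraries, 162 of 188 counts of called members stayed within 1.5 times the reported one. The cause of the shifts below was not tested. A filter at 5 CPM, which tests fewer members, gave 8 for age and 10 for adult infarction in leukocytes, 3 for their difference between ages and 13 for age in endothelial cells. In the cardiomyocyte fraction the difference between ages gave 0 under a pseudocount of 1, without a filter, with a filter at 5 CPM, under median-of-ratios scaling and without the libraries over 5% 18S, and 4 without P56 sham and MI replicates 3 together; adult infarction gave 1 without the 18S libraries and 5 without those replicates 3. Neonatal infarction in fibroblasts gave 1 under median-of-ratios scaling, with edgeR, with DESeq2 and without the 18S libraries. In endothelial cells neonatal infarction gave 1 with DESeq2 and 4 without P1 sham and MI replicates 4 together, and adult infarction gave 2 without a filter. Members highest in cardiomyocytes numbered 2 with edgeR and with DESeq2, those highest in leukocytes 0 under a pseudocount of 1, a filter at 5 CPM or MI in place of sham libraries, and those highest in endothelial cells 5 in the MI libraries.

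With single libraries left out, called members ranged in the cardiomyocyte fraction from 18 to 23 for age, from 0 to 0 for neonatal and from 1 to 6 for adult infarction and from 0 to 4 for the difference. In fibroblasts the ranges were 17 to 21, 0 to 1, 14 to 17 and 8 to 13, in leukocytes 11 to 18, 6 to 11, 15 to 18 and 8 to 11, and in endothelial cells 20 to 21, 0 to 4, 0 to 5 and 0 to 3, in the same order. Members highest in a population ranged from 1 to 1 in cardiomyocytes, 11 to 12 in fibroblasts, 0 to 1 in leukocytes and 3 to 4 in endothelial cells. Within a population no pairing by library number was detected: the correlations of same-numbered libraries exceeded 0.1 in every pair for 0 of 8 sham and MI group pairs and 0 of 8 pairs of ages. Single same-numbered correlations reached 0.44, and this criterion cannot show that no libraries were paired. Between 2 populations of a group every same-numbered correlation exceeded 0.1 for 12 of 24 pairs, among them 6 of 6 in P56 sham and 0 of 6 in P1 sham. With the replicate number of each age as a block, the comparison of sham populations gave the same 11, 3, 1 and 1 members highest in fibroblasts, endothelial cells, cardiomyocytes and leukocytes. In the fits within a population, with the number as a block, the difference between ages in endothelial cells gave 0 and the other counts stayed within 1.5 times. Median-of-ratios scaling moved the median change of all genes by more than 0.1 only for the cardiomyocyte difference between ages (-0.11). Depth limits the rarest members: 3 reads stand for up to 0.409 CPM.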

Other observations

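Wnt9b, the endothelial ligand, did not pass the filter in fibroblasts, but its P56 MI libraries held 0.159, 6.28, 1.63 and 2.35 CPM against 0.194, 0.304, 0.115 and 0.386 CPM in P56 sham. In 3 of the 4 infarct libraries it was above every sham library, and in 1 it was not. Endothelial markers in the same fibroblast groups summed to 464 to 669 CPM in P56 sham and 228 to 499 CPM in P56 MI, and their part was not tested. The 2 members below 1 CPM in every group mean were Wnt8b, with a highest group mean of 0.455 CPM, and Wnt16, with a highest of 0.991 CPM. Wif1 in fibroblasts was at 4.14, 0.652, 1.90 and 3.04 CPM in P56 sham and 2.47, 4.41, 2.75 and 12.0 CPM in P56 MI (log2 change 0.93 ± 0.45 (SE), adjusted p = 0.0945) and was not called.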
